A study of Drosophila melanogaster with 8 samples.

Results

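The nucleolus is where a cell transcribes ribosomal RNA with RNA polymerase I and builds it into ribosomal subunits. Small nucleolar ribonucleoproteins (snoRNPs) modify and fold the new transcript, assembly factors and GTPases carry each subunit towards the cytoplasm, and the RNA exosome trims precursors and degrades the spacers. Germline stem cells of the fly ovary are known for a large nucleolus and high ribosomal RNA synthesis, and the genes udd and wcd are known to be needed there.

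The genes described here are 27 of 32 listed nucleolar ribosome biogenesis and exosome genes, those whose symbols occur in the authors' comparison table of 11397 genes. The other 5 symbols, Polr1A to Polr1E, are not in that table as written. Their gene IDs are there under older symbols (RpI1, RpI135, CG3756, l(2)37Cg and CG18600), so their values are given beside the 27 and stay out of every count. All 27 passed the minimum mean of 1 TPM used here and were among the 8898 tested genes.

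Polyadenylated RNA was sequenced from Drosophila melanogaster ovaries in which GSC-like cells, that is, cells like germline stem cells, had been enriched, in 4 control libraries and 4 libraries overexpressing Stonewall (Stwl), which binds DNA in the female germline. Females of both groups were 4 to 5 days old, and about 35 ovaries went into each library. The genotype labels read Control and Stwl overexpression, and the titles name the overexpression libraries StwlEY without saying what EY stands for. The alleles behind the enrichment, the driver of Stwl and the genetic background are not given in the sources used, and Stwl and strain cannot be told apart as the source of a difference. No label ties replicates to separate crosses, and p-values here reflect only how much these libraries vary. Levels are in TPM, an abundance per transcript length scaled to one fixed sum in each library, which keeps no sequencing depth.

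The gene stwl (chromosome 3L, 14402930 to 14409939) rose from 23.5 ± 1.31 to 57.9 ± 9.65 TPM (SD, n = 4 each). Defining germline genes were present, with vas at 402 ± 11.9 TPM in controls, and the sum of 9 germline markers was 1069 to 1162 TPM in controls and 798 to 1142 TPM with overexpression, lowest in overexpression replicate 1. Of these 9, 1 was higher and none lower in limma, while 4 were lower and 1 was higher in the authors' deposited table. The level of vas was 341 ± 54.1 TPM with overexpression. The libraries also held other cells of the ovary: 7 yolk and vitelline membrane genes summed to 94840 to 136300 TPM in controls and 84220 to 130600 TPM with overexpression, and none passed. Chorion genes, made in late follicle cells, summed to 112 to 802 TPM in controls and 1518 to 7031 TPM with overexpression, with 8 of 9 higher. Muscle sheath markers summed to 2858 to 3757 TPM in controls and 4595 to 5547 TPM with overexpression, with 12 of 16 genes higher. Hemocyte markers summed to 211 to 241 and 281 to 361 TPM, with 6 of 10 higher. Somatic gonad markers (niche, escort and follicle cells) summed to 782 to 997 and 907 to 972 TPM, with 1 of 10 tested higher. The part of these shifts in the results below was not tested. In bulk samples, fewer cells of a type and less RNA per cell cannot be told apart.

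The 27 genes were well expressed. Their mean over the 8 libraries ran from 29.8 TPM for Mybbp1A to 362 TPM for Non1, with a median of 70.3 TPM against 28.3 TPM over all tested genes. Together they summed to 3044 ± 54.4 TPM in controls but 2886 ± 35.2 TPM in overexpression libraries (SD, n = 4 each). The highest overexpression sum, 2915 TPM, lay below the lowest control sum, 2976 TPM. Median-of-ratios scaling, another setting tried, gave factors of 0.9046, 0.9824, 1.063 and 1.114 for overexpression 1 to 4. For controls the factors were 0.9444 to 1.02. The separation of the sums is stated for unscaled TPM only and was not recomputed with these factors. Replicates were tight: the median residual SD of log2(TPM + 1) was 0.071 for these genes and 0.14 for all tested genes, or 0.12 for the 3980 tested genes in the same range of levels.

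**Figure D1:**
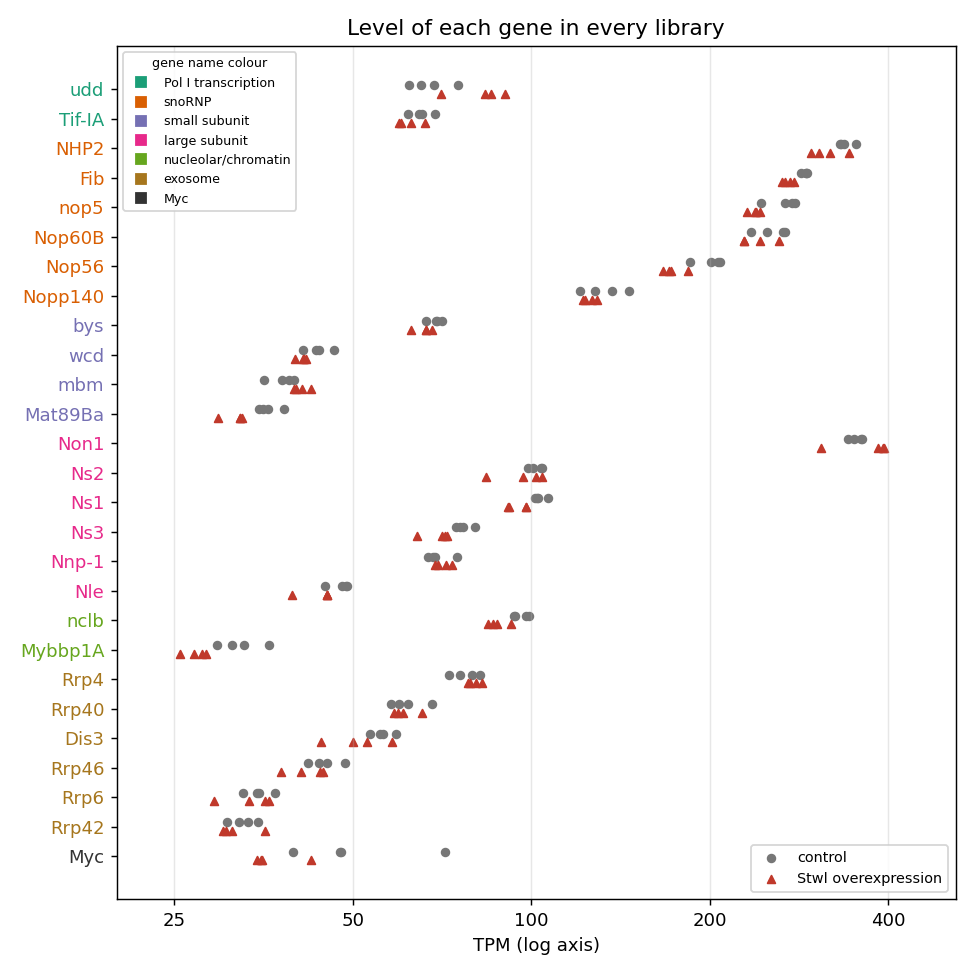
TPM of the 27 genes in each library on a log axis, controls as grey circles and Stwl overexpression as red triangles, with gene names coloured by role. The snoRNP genes and Non1 sit at the top of the range and Mybbp1A and Rrp42 at the bottom, and most genes differ far more from each other than between the groups.

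With Stwl overexpression 1 of the 27 genes passed the test, Nop56, which was lower, and none was higher. That is 3.70% of the genes lower, against 2.18% of all tested genes called lower and 6.2% called higher by limma at an adjusted p of 0.05. At an unadjusted p under 0.05, 9 were lower and 1 higher, beside 7.32% lower and 14% higher of all tested genes. Estimates were below 0 for 22 of 27 genes, with a median log2 fold change of -0.088, while over all tested genes 46.0% were below 0 and the median was 0.014. In unscaled TPM the groups did not overlap for 8 genes, all lower with overexpression, or 29.6% of the 27. This count depends on the scale of each library and was not made after scaling. The 8 genes were Fib, nop5, Nop56, Mat89Ba, Ns1, Ns3, nclb and Mybbp1A. Among all tested genes 5.64% did not overlap in that direction and 10.3% in the other.

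Estimates in the authors' deposited table had the same sign for 26 of the 27. There, 8 genes were lower and 1 higher at an adjusted p of 0.05, 29.6% lower beside 8.4% of the genes with an adjusted p there, and 10.5% of those genes were higher. The 8 were Mat89Ba, Nle, Ns1, Ns2, Ns3, Mybbp1A, Dis3 and Myc, and the higher one was udd. Nop56 was not among them, with an adjusted p of 0.0851 in the authors' deposited table, so no gene of the 27 was called by both. None carried the authors' mark Up or Down, which the file gives to 3.46% and 1.35% of its genes and which corresponds to an absolute log2 fold change above 0.6 with an adjusted p under 0.01. Estimates of the authors' deposited table lay below those of limma for all 27, by a median of 0.031 on the log2 scale. The median over all genes was also lower there, at -0.0054 against 0.014 in limma.

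**Figure D2:**
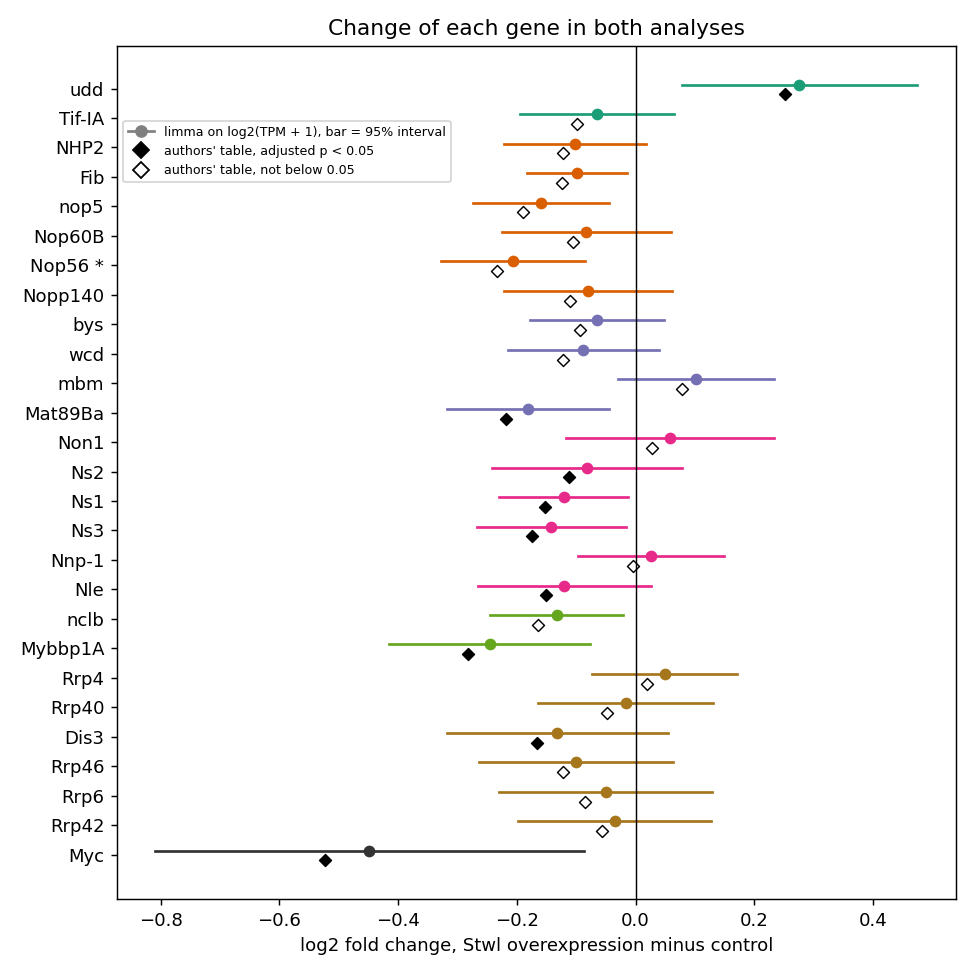
Log2 fold change of each gene (overexpression minus control), coloured circles from limma with bars for the 95% confidence interval, and diamonds from the authors' deposited table, filled where its adjusted p is below 0.05. The asterisk marks Nop56, the gene called by limma; most points lie to the left of 0, and Myc and udd lie farthest out on either side.

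Box C/D snoRNPs guide methylation of ribosomal RNA. Their core holds the methyltransferase fibrillarin, encoded by Fib, and the scaffold proteins encoded by nop5 and Nop56. Nop56 (chromosome 3R, 22419095 to 22421068) was at 207, 208, 201 and 185 TPM in controls 1 to 4 and at 184, 171, 167 and 172 TPM in the same order with overexpression. The groups did not overlap, but control 4 and overexpression 1 nearly met. The mean fell from 200.3 ± 10.5 to 173 ± 7.30 TPM (SD, n = 4 each), with a log2 fold change of -0.21 (SE 0.054, limma adjusted p 0.0476). This call rests on most of the libraries: it was lost without control 1, control 2, control 3 or overexpression 2, 3 or 4, with adjusted p-values from 0.0884 to 0.136 in limma, and it was kept without control 4 or overexpression 1. It was also lost with median-of-ratios scaling, a minimum mean of 5 TPM and a replicate block (adjusted p 0.129, 0.0557 and 0.0516 in limma), though the estimate stayed between -0.25 and -0.19.

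The gene nop5 was at 275, 279, 268 and 244 TPM in controls and at 239, 244, 238 and 231 TPM with overexpression. Every overexpression library lay below every control, the closest pair being control 4 and overexpression 2, but the change did not pass (log2 fold change -0.16, SE 0.051, limma adjusted p 0.0968). It passed without control 4, with quantile normalization and with library weights (adjusted p 0.0432, 0.0346 and 0.0168 in limma). Fib was the steadiest of these genes, at 286, 291, 291 and 292 TPM in controls and 277, 273, 268 and 265 TPM with overexpression. Its groups were separate, and the log2 fold change of -0.099 had a limma adjusted p of 0.161. With library weights Fib passed as lower (adjusted p 0.00501 in limma).

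The ratio of nop5 to Nop56 was 1.33 ± 0.0083 in controls and 1.38 ± 0.063 in the overexpression libraries (SD, n = 4 each), where it ran from 1.30 to 1.43. It was 1 of 12 ratios computed within libraries. The pairs were chosen after the values were seen. None of the 12 ratios differed between the groups after Benjamini-Hochberg adjustment, the smallest adjusted value being 0.343 in 2-sided exact permutation tests.

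Box H/ACA snoRNPs convert uridine to pseudouridine, with the catalytic subunit dyskerin encoded by Nop60B and a small core protein by NHP2. NHP2 was at 338, 353, 332 and 333 TPM in controls and 343, 319, 306 and 296 TPM with overexpression, so overexpression 1 lay inside the control range and the other three below it. Nop60B was at 266, 269, 250.0 and 235 TPM in controls and 262, 244, 229 and 229 TPM with overexpression, and the groups overlapped. Neither passed, with log2 fold changes of -0.10 and -0.083 and adjusted p-values of 0.325 and 0.524 in limma. Both passed as lower with library weights (adjusted p 0.00851 and 0.0450 in limma). Nopp140, a phosphoprotein that accompanies snoRNPs in the nucleolus and Cajal bodies, was at 133 ± 10.9 and 125 ± 3.05 TPM in controls and overexpression (SD, n = 4 each) and had a log2 fold change of -0.081 with a 95% interval of -0.22 to 0.061. All 6 snoRNP genes thus had estimates below 0, between -0.21 and -0.081, and 1 passed.

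A further list held 64 other genes, 7 of them for Myc partners, antagonists and the Tor pathway and the rest for ribosome biogenesis or the nucleolus. Of its 8 snoRNP genes, 2 were lower and none was higher in limma. They were pont and rept, which encode paired AAA+ ATPases that assist snoRNP assembly and also serve chromatin remodelling complexes. The gene pont was at 122, 116, 123 and 128 TPM in controls and 95.8, 103, 102 and 108 TPM with overexpression, and rept was at 114, 111, 111 and 109 TPM and at 90.7, 96.9, 96.2 and 103 TPM. Both sets of libraries were fully separate. Their log2 fold changes were -0.25 and -0.20 with adjusted p-values of 0.0203 and 0.0438 in limma, and both genes were also lower in the authors' deposited table, by 0.29 and 0.23 on the log2 scale with adjusted p-values of 5.3e-07 and 0.000332. Leaving out 1 library ended the call of pont in 5 of 8 cases (control 1, control 3, control 4, overexpression 2 and overexpression 3) and that of rept in 6 (these and control 2), with adjusted p-values up to 0.0693 and 0.128 in limma.

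The 64 listed genes as a whole, written down with earlier results of these data known, had a median of -0.078 for the log2 fold change, and for 51 of 64 it was below 0. Apart from pont and rept, none passed in limma, so 3.13% were lower. Of the 64 genes 11, or 17.2%, were lower in the authors' deposited table and none was higher. Besides pont and rept these included the Pol I initiation factor gene TAF1B, the small subunit genes CG7728, Tsr1 and RIOK1, the large subunit genes CG7839 and Nmd3, the exosome helicase gene Mtr4 and raptor, which encodes a subunit of the growth regulator TORC1.

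Polymerase I needs initiation factors at the ribosomal DNA promoter. Tif-IA, which couples the polymerase to growth signals, was at 68.9, 64.6, 65.3 and 61.9 TPM in controls and 60.2, 59.8, 62.7 and 66.3 TPM with overexpression. The groups overlapped, with a log2 fold change of -0.065 and a limma adjusted p of 0.596. The gene udd (under-developed, chromosome 2R, 8106385 to 8107373), whose product binds the promoter in a complex needed for ribosomal RNA synthesis in germline stem cells, had the largest positive estimate of the 27. It was at 65.3, 62.2, 68.6 and 75.3 TPM in controls and 70.5, 90.3, 83.6 and 85.6 TPM with overexpression. Overexpression 1 lay within the control range and the other three above it.

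The log2 fold change of udd was 0.28 (SE 0.088), and its limma adjusted p of 0.0968 did not pass. It passed without overexpression 1, with a log2 fold change of 0.35 and a limma adjusted p of 0.0144, and with median-of-ratios scaling, quantile normalization or library weights (adjusted p 0.0419, 0.0381 and 0.00324 in limma). In the authors' deposited table its log2 fold change was 0.25 with an adjusted p of 0.0149. A transposable element is annotated on the same strand over 329 of the 989 exon bases of udd. How far reads of that element enter the value of udd was not tested.

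The 5 subunit genes of Pol I that the symbol match left out had estimates on both sides of 0. The largest subunit gene Polr1A was at 53.0 ± 3.17 and 50.6 ± 5.50 TPM, and Polr1B, the second largest, at 39.6 ± 1.89 and 39.0 ± 4.21 TPM in controls and overexpression (SD, n = 4 each). Polr1C and Polr1D, whose products are shared with polymerase III, were at 47.9 ± 1.81 and 44.3 ± 2.87 TPM and at 98.2 ± 14.6 and 100.8 ± 14.4 TPM (SD, n = 4 each). Polr1E was at 43.6 ± 1.08 and 41.1 ± 1.84 TPM (SD, n = 4 each). Their log2 fold changes were -0.070, -0.026, -0.11, 0.038 and -0.082 for Polr1A to Polr1E. None passed in limma or in the authors' deposited table, and the 95% confidence intervals of all 5 lay between -0.26 and 0.33 on the log2 scale. With library weights Polr1C and Polr1E passed as lower, with log2 fold changes of -0.18 and -0.12 (adjusted p 0.00567 and 0.0183 in limma). Polr1D shares 75 of its 756 exon bases with DCTN6-p27 on the opposite strand, and whether the counting used strand is not given.

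Small subunit assembly is represented by 4 genes, of which none passed in limma. Mat89Ba (chromosome 3R, 16268329 to 16272415), the homologue of the processome protein NOL6, was at 38.2, 36.0, 35.2 and 34.7 TPM in controls and 29.6, 32.5, 32.2 and 32.3 TPM with overexpression. The groups were separate and overexpression 1 was the lowest library. Its log2 fold change was -0.18 (SE 0.061, limma adjusted p 0.11), and it was lower in the authors' deposited table by 0.22 on the log2 scale (adjusted p 0.0119). It passed in limma with median-of-ratios scaling and with library weights, with adjusted p-values of 0.0483 and 0.0149.

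The gene wcd (wicked), whose product is a processome protein known from asymmetric division in the fly germline, was at 43.8, 46.5, 43.4 and 41.3 TPM in controls and 39.99, 41.3, 41.3 and 41.7 TPM with overexpression. Control 4 lay among the overexpression libraries, and the change did not pass (log2 fold change -0.088, adjusted p 0.433 in limma). For bys, which encodes the late assembly factor bystin, levels were 68.9 ± 1.69 and 65.8 ± 2.28 TPM (SD, n = 4 each), with an estimate of -0.065. mbm, a nucleolar protein gene first known from the mushroom body of the brain, went the other way, at 37.9, 39.8, 39.0 and 35.4 TPM in controls and 42.5, 41.1, 40.1 and 39.8 TPM with overexpression. The lowest overexpression library of mbm and control 2 were almost level, and the log2 fold change of 0.10 had a limma adjusted p of 0.378.

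Large subunit assembly is represented by 6 genes, 4 with estimates below 0. Ns1 encodes the fly nucleostemin, a nucleolar GTPase, and Ns2 and Ns3 encode related GTPases, that of Ns3 acting in the cytoplasm. Ns1 was at 101, 102, 107 and 102 TPM in controls and 91.4, 91.8, 98.1 and 98.1 TPM with overexpression. Ns3 was at 74.7, 75.8, 76.8 and 80.2 TPM in controls and 64.2, 70.6, 71.6 and 72.2 TPM with overexpression. Both genes had separate groups, with log2 fold changes of -0.12 and -0.14 and adjusted p-values of 0.184 and 0.174 in limma. Both passed with quantile normalization (adjusted p 0.0231 and 0.0209 in limma) and with library weights (0.0429 and 0.0227). Ns3 also passed with median-of-ratios scaling (adjusted p 0.0366 in limma).

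In unscaled TPM Ns2 was clearly low in overexpression 1 alone, a library with a median deviation of -0.12 over all tested genes. Ns2 was at 101, 98.7, 104 and 104 TPM in controls and 83.8, 96.8, 102 and 104 TPM with overexpression. Its log2 fold change was -0.081 (SE 0.071) with a limma adjusted p of 0.593. With median-of-ratios scaling it was -0.11 with a smaller SE of 0.035 (limma adjusted p 0.0632). The 3 GTPase genes were all lower in the authors' deposited table, Ns1 by 0.15, Ns2 by 0.11 and Ns3 by 0.17 on the log2 scale, with adjusted p-values of 0.0348, 0.0167 and 0.00891. Nle (Notchless), an adaptor of the remodelling ATPase Midasin, was at 48.8, 44.95, 48.0 and 48.8 TPM in controls and 39.5, 45.3, 45.2 and 45.2 TPM with overexpression. The groups met at control 2, and Nle did not pass in limma (log2 fold change -0.12, adjusted p 0.341) but was lower by 0.15 on the log2 scale in the authors' deposited table (adjusted p 0.0471).

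Non1, a GTPase gene of early large subunit assembly and the most abundant of the 27, was at 342, 360, 351 and 362 TPM in controls and 309, 384, 391.6 and 394 TPM with overexpression. Overexpression 1 was below all controls and the other three above them. Over all libraries the log2 fold change was 0.058 with a limma adjusted p of 0.759, and without overexpression 1 it was 0.14 with an adjusted p of 0.0412. The remaining gene, Nnp-1, homologous to a ribosomal RNA processing protein of yeast, averaged 69.7 ± 3.60 TPM in controls but 71.0 ± 2.14 TPM with overexpression (SD, n = 4 each), and had an estimate of 0.026 with a 95% interval of -0.097 to 0.15 on the log2 scale, and the sign turned with median-of-ratios scaling and quantile normalization.

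Of the genes for nucleolar proteins that also touch chromatin, Mybbp1A (chromosome X, 629773 to 633633), a homologue of a Myb-binding nucleolar protein of mammals, was the least abundant of the 27. It was at 36.2, 32.7, 31.3 and 29.5 TPM in controls and 27.9, 28.2, 25.5 and 26.9 TPM with overexpression. The groups were separate by a little over 1 TPM. The log2 fold change of -0.25 had an SE of 0.075 (limma adjusted p 0.084), and in the authors' deposited table the gene was lower by 0.28 on the log2 scale (adjusted p 0.0481). In limma Mybbp1A passed with library weights (adjusted p 0.00395). The gene nclb (no child left behind), a chromatin-associated WD-repeat protein needed in the male germline, was at 99.2, 97.8, 93.6 and 94.0 TPM in controls and 84.5, 86.1, 92.6 and 87.4 TPM with overexpression. Its groups were separate too, and the log2 fold change of -0.13 had a limma adjusted p of 0.156, and the adjusted p was 0.0909 in the authors' deposited table.

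The RNA exosome has a ring of inactive subunits, capped by RNA-binding subunits and joined by the nucleases Dis3 and Rrp6. None of the 6 exosome genes passed in the main limma fit, none had separate groups in unscaled TPM, and the median log2 fold change was -0.043. In controls the cap genes Rrp4 and Rrp40 were at 77.5 ± 4.11 and 61.9 ± 4.38 TPM, and with overexpression they were at 80.1 ± 2.00 and 61.1 ± 2.96 TPM (SD, n = 4 each). The ring gene Rrp46 was at 44.9 ± 2.75 and 41.8 ± 3.09 TPM in controls and overexpression (SD, n = 4 each), and the ring gene Rrp42 at 34.5, 30.7, 33.3 and 32.1 TPM and at 31.2, 35.6, 30.6 and 30.2 TPM. The log2 fold changes of Rrp4, Rrp40, Rrp46 and Rrp42 were 0.049, -0.017, -0.10 and -0.035. Rrp4 was above Rrp42 in every library, while other pairs overlapped, such as Rrp6 with Rrp42 and Dis3 with Rrp40. The value of Rrp40 is uncertain, since 362 of its 1031 exon bases overlap Eno on the opposite strand, a gene at 265 TPM.

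Of the nuclease genes, Dis3 was at 56.3, 53.5, 55.6 and 59.1 TPM in controls and 44.3, 50.1, 52.9 and 58.2 TPM with overexpression. In these unscaled values overexpression 1 was lowest and overexpression 4 lay inside the control range. Their median-of-ratios factors were the lowest and the highest, 0.9046 and 1.114. The log2 fold change was -0.13 (SE 0.083, limma adjusted p 0.425), against -0.17 (SE 0.043, adjusted p 0.00142) in the authors' deposited table. Dis3 passed in limma with median-of-ratios scaling and with quantile normalization (adjusted p 0.0253 and 0.028). Rrp6, the nuclear nuclease, was at 36.9, 34.7, 32.7 and 34.5 TPM in controls and 29.1, 33.5, 35.5 and 36.2 TPM with overexpression, with overexpression 1 again lowest and the other three among the controls. Its estimate of -0.051 became 0.014 without overexpression 1 and 0.054 with library weights.

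Myc, the transcription factor that drives ribosome biogenesis genes in flies and mammals, had the largest estimate in either direction. Myc (chromosome X, 3373159 to 3391697) was at 71.4, 47.8, 47.5 and 39.7 TPM in controls and 35.0, 35.2, 34.4 and 42.5 TPM with overexpression. Overexpression 4 lay above control 4, the other three overexpression libraries lay below all controls, and control 1 was far above the rest. The means were 51.6 ± 13.8 and 36.8 ± 3.85 TPM (SD, n = 4 each), with a 2-sided exact permutation p of 0.0571. For Myc the log2 fold change was -0.45 with a 95% interval of -0.81 to -0.088 and a limma adjusted p of 0.134, so it did not pass, whereas the authors' deposited table gave -0.52 with an adjusted p of 0.00882. In limma it passed only with library weights among the 15 alternatives tried (adjusted p 0.0222), and without control 1 the log2 fold change was -0.28. On the opposite strand CG12535 overlaps 3754 of the 9170 exon bases of Myc and was at 0.258 TPM. On the same strand lncRNA:CR44999 shares 1859 of them, and how far its reads enter the value of Myc was not tested. None of 7 genes for Myc partners, antagonists and the Tor pathway passed, and their median log2 fold change was -0.12.

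**Figure D3:**
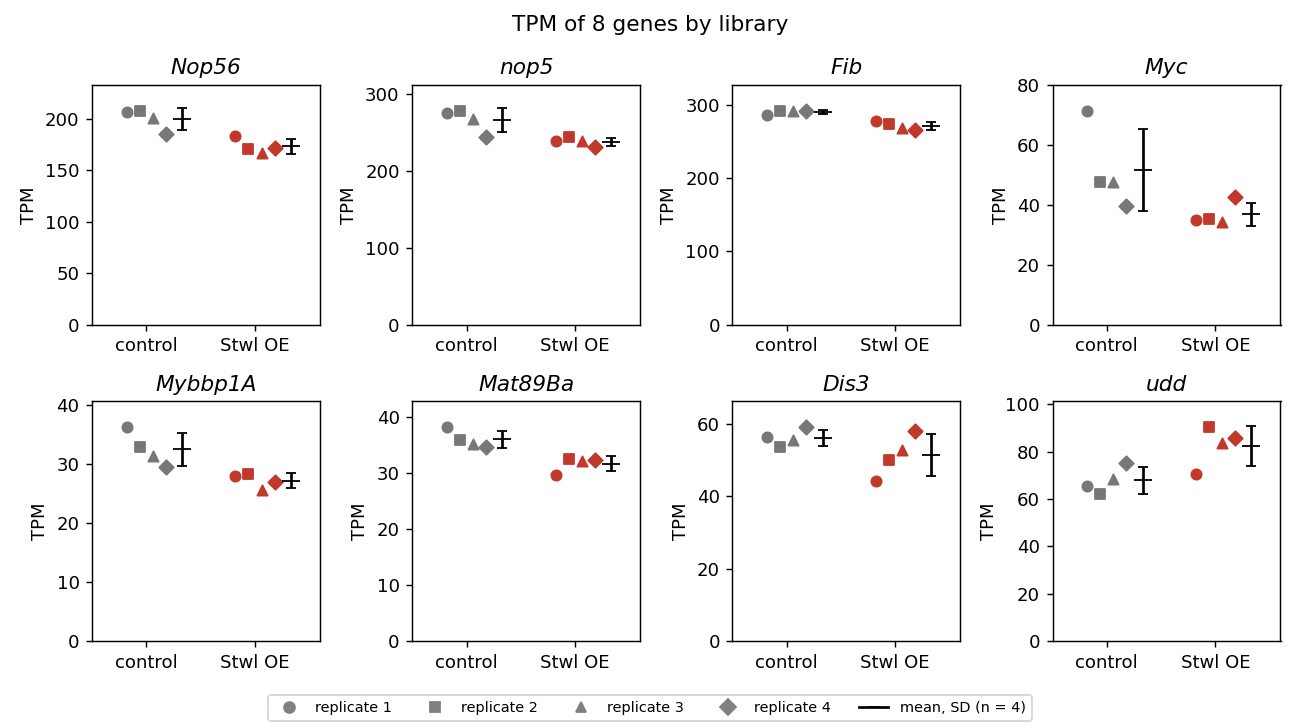
TPM of 8 genes in each library, with axes from 0, control in grey and overexpression in red, marker shapes for the replicate number and black bars for the mean and SD. For Nop56, nop5, Fib, Mybbp1A and Mat89Ba all overexpression points lie below all control points, while Myc, Dis3 and udd overlap between the groups and Myc is highest in control 1 at 71.4 TPM.

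The overexpression libraries were not alike for these genes. Overexpression 1 was the lowest of its group for 12 of the 27 genes and the highest for 7, and the share over all tested genes was not counted. In that library the 6 large subunit genes had a median deviation of -0.23 from the control mean on the log2 scale. It was -0.072 to -0.020 in overexpression replicates 2 to 4. For the snoRNP genes the order was the opposite, with -0.052 in overexpression 1 and -0.086, -0.15 and -0.17 in replicates 2, 3 and 4. Controls 1 to 4 were at 0.047, 0.058, -0.010 and -0.11 for the snoRNP genes. The fall towards replicate 4 was thus present in both groups. Overexpression 1 also had the lowest germline marker sum, at 798 TPM against 937, 1070 and 1142 TPM, and the part of this in these values was not tested. Over all 27 genes the median deviation was -0.12, -0.081, -0.079 and -0.072 in overexpression replicates 1 to 4 and between -0.023 and 0.0047 in the controls. Over all tested genes it was -0.12, -0.022, 0.083 and 0.13 in the same overexpression libraries and between -0.062 and 0.028 in the controls. The gap between the 27 genes and all tested genes was small in overexpression 1 and widest in overexpression 3 and 4. In overexpression 2 it was no wider than in control 2, where it had the opposite sign, with values of 0.0038 and -0.062.

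**Figure D4:**
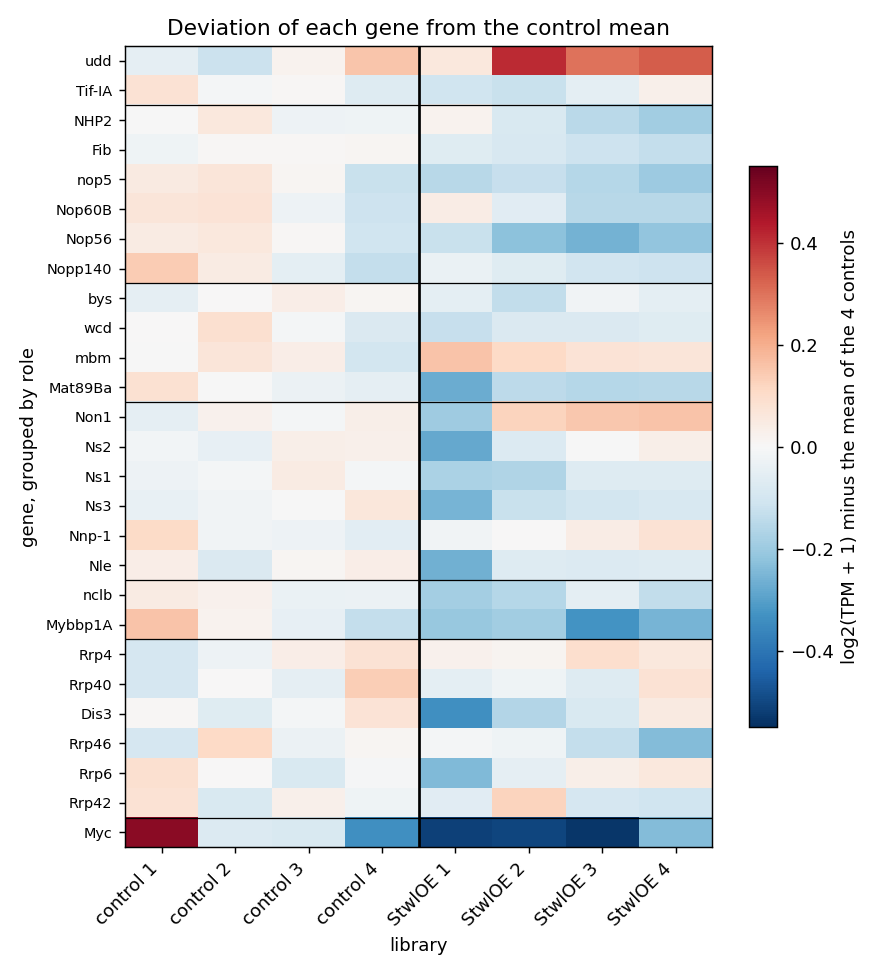
Deviation of log2(TPM + 1) from the mean of the 4 controls for each of the 27 genes (rows, grouped by role) in the 8 libraries (columns), blue for lower and red for higher. The columns of overexpression are mostly pale blue, udd is red in overexpression replicates 2 to 4, Myc is dark blue in replicates 1 to 3, and several large subunit genes, Dis3 and Rrp6 are darkest in overexpression 1.

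How large a change these data leave room for depends on the fit. In limma on unscaled TPM, the 95% interval of the fold change lay between 0.8-fold and 1.25-fold for 23 of the 27 genes. These limits were chosen after the values were seen. The exceptions were udd, whose upper bound was 1.39-fold, and Nop56, Mybbp1A and Myc, with lower bounds of 0.797-fold, 0.750-fold and 0.571-fold. Other fits had other errors. The SE of NHP2 was 0.053 here, 0.105 with median-of-ratios scaling and 0.1097 in the authors' deposited table. For Nop60B it was 0.063, 0.1115 and 0.114. That of Dis3 went the other way, at 0.083, 0.039 and 0.043. The count of 23 was not made for the other fits.

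The authors' deposited table marks each gene with a Stwl peak no more than 1 kb from its body, and the file does not say where the peaks came from. The mark was on 20 of the 27 genes, or 74.1%, against 73.7% of all its genes and 79.5% of the tested genes it holds. The 7 without one were Nop56, udd, wcd, Ns3, Nle, Rrp42 and Dis3. The mark was on 5 of the 10 genes called in limma or in the authors' deposited table, and on 15 of the 17 called in neither, a split of few genes given without a test. Among all tested genes of that table the mark was on 78.1% of those called in either and 79.9% of those called in neither. All of the 10 but udd were called lower. By direction in limma, the mark was on 65.5% of tested genes called lower and 74.8% of those called higher. The same table names 2 other studies in which a gene was upregulated, without giving their conditions. None of the 27 genes and none of the 5 subunit genes of Pol I carried such a mark. Of the 64 other listed genes 1 did, Tor. The mark was on 24.4% of the tested genes in that table and on all 16 muscle sheath markers.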

How the data were processed

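Per the submitters' processing notes, the tools were Salmon 1.10.1 and DESeq2 1.37.4 and the build BDGP 6, without roles. The authors deposited TPM for 14094 genes in 8 libraries. The headers say log2, but each column sums to 1000000, and the values were taken as linear TPM. Depth is unknown, which allows no counting interval. The authors' deposited table of 11397 genes gives log2 fold changes, p-values, a test score and marks per gene, per the file headers, and was copied and not recomputed.

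Genes averaging at least 1 TPM were kept (8898). Values were put on the log2(TPM + 1) scale, which understates changes of low genes, and limma 3.58.1 (R 4.3.3) was run with group as its term and a variance trend. Benjamini-Hochberg adjustment covered all tested genes, with a threshold of 0.05. Exact permutation tests were 2-sided, and 4 against 4 libraries allow no p below 0.0286. Settings tried instead were another pseudocount, other filters, median-of-ratios and quantile scaling, library weights, a replicate block and leaving out each library. Positions and exon overlaps are from Ensembl release 115 (BDGP 6). No sequences are printed.

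The 27 genes and all lists were chosen with earlier results of these data known. Of 70 other genes listed for ribosome biogenesis, the nucleolus, Myc partners and the Tor pathway, 64 were matched. All 27 are named with level and fold change. Library values are given for genes called in either analysis, for Myc, udd, wcd, nclb, Fib, Nop60B and Tif-IA, and for the 2 most abundant, the 2 least abundant and the 2 most changed each way. Values of nop5 and Rrp6, and the other listed genes called in the authors' table, were added after they were seen, and 1 of the latter is not reported here. Plots used matplotlib 3.10.9 (Python 3.11.15).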

Additional observations from a re-analysis of the deposited data

Results flagged for a closer look

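In 5 of the 66 groups of 4 libraries examined (27 genes, 5 Pol I subunit genes and stwl, in each group), 1 library stood far from the other three by Dixon's criterion, which chance alone meets in about 1 of 20 groups. Fib was at 286 TPM in control 1 and at 291 to 292 TPM in the other controls, a small gap in a very narrow group. Mat89Ba was at 29.6 TPM in overexpression 1 and at 32.2 to 32.5 TPM in the other overexpression libraries. Non1 was at 309 TPM in overexpression 1 and at 384 to 394 TPM in the others. Nle was at 39.5 TPM in overexpression 1 and at 45.2 to 45.3 TPM in the others. Myc was at 42.5 TPM in overexpression 4 and at 34.4 to 35.2 TPM in the others. Of the 5, 3 concern overexpression 1, the library with the lowest germline marker sum. That library also had the lowest median deviation over all tested genes, -0.12, and the lowest median-of-ratios factor, 0.9046. The criterion was applied to unscaled TPM only, so these 3 flags may reflect the scale of the library, which was not tested.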

How the results depend on the processing

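Counts of the 27 genes depended on the settings. Lower genes came to 0 with a minimum mean of 5 TPM, 3 with median-of-ratios scaling, 5 with quantile normalization, 10 with library weights, 8 in the authors' deposited test and 0 with a replicate block. Higher genes came to 1 with median-of-ratios scaling, 1 with quantile normalization, 2 with library weights and 1 in the authors' test. Leaving out 1 library gave 0 to 2 lower and 0 to 2 higher genes. The median log2 fold change was -0.12 with median-of-ratios scaling, -0.13 with quantile normalization and -0.12 in the authors' deposited test, and -0.11 to -0.069 with 1 library left out. It was below 0 under all alternatives run.

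Over all 8898 tested genes, lower genes came to 626 with median-of-ratios scaling, 715 with quantile normalization and 804 with library weights. In the authors' deposited test 893 of 10631 genes were lower. Higher genes came to 806 with median-of-ratios scaling, 663 with quantile normalization, 2293 with library weights and 1113 in the authors' test. With a minimum mean of 5 TPM 413 of 7483 genes were higher and 138 lower. With 1 library left out, higher genes ran from 336 to 988 and lower genes from 99 to 248. Higher genes made up 74.0% of calls, 56.3% with median-of-ratios scaling, 48.1% with quantile normalization and 55.5% in the authors' deposited test. The cause was not tested.

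Estimates that turned sign belonged to genes that did not pass under that setting. Nnp-1 came to -0.0046 with median-of-ratios scaling, -0.0038 with quantile normalization and -0.0050 in the authors' deposited test. Non1 came to -0.0044 with quantile normalization. With library weights Rrp6, Polr1B and Polr1D came to 0.054, 0.019 and -0.026. With 1 library left out, Rrp6 ran from -0.087 to 0.014, Rrp40 from -0.049 to 0.028, Polr1A from -0.12 to 0.0037, Polr1B from -0.077 to 0.047 and Polr1D from -0.057 to 0.12.

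Deviations of same-numbered libraries correlated at 0.128, -0.0174, -0.134 and 0.144, and not every library correlated best with its own number. With 4 libraries in each group this cannot settle whether replicate numbers pair libraries. Yolk, vitelline membrane and chorion genes summed to 136400, 133600, 95640 and 107600 TPM in controls 1 to 4. In the same order they summed to 137600, 123100, 88780 and 94540 TPM with overexpression. Replicates 1 and 2 were thus above 3 and 4 in both groups, as for somatic gonad markers. Germline, hemocyte and muscle sheath sums did not show this in both groups. With the replicate block 576 genes were higher and 202 lower over all tested genes, and 0 of the 27 were lower (Nop56 adjusted p 0.0516 in limma), and rept had an adjusted p of 0.0779 in limma. TPM hides depth, so the precision of single libraries cannot be given.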
